A study of Homo sapiens with 6 samples.

Results

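The transcripts described here encode the proteasome: the subunits of its 20S core and 19S cap, the 3 interferon-inducible immunoproteasome subunits, the activators and the inhibitor that bind the core, and the factors that assemble it. The members were chosen by gene symbol, with earlier results of these data known, and all 48 symbols were found among the 56303 genes of the count table. They fall into 7 groups. The core has 7 alpha subunits, 7 constitutive beta subunits and 3 immunoproteasome subunits. The 19S cap has 6 ATPase subunits and 15 non-ATPase members, which include the chaperones of its base PSMD5, PSMD9 and PSMD10. The rest are 5 activators and inhibitor, and 5 assembly factors. In cells given NFE2L3 siRNA, 31 of the 48 transcripts were lower than in control cells and none was higher. Among all 19916 genes tested, 14.1% were lower and 12.9% higher by the same test. The differences of the members were small: the lowest member stood at 69.6% of its control level.

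The proteasome degrades proteins that have been tagged with ubiquitin. Its core is a stack of rings in which the alpha subunits form the gate and some of the beta subunits carry the protease sites, while the 19S cap binds, unfolds and feeds in the substrate. NFE2L3 is a transcription factor of the cap'n'collar family, whose members bind antioxidant response elements (ARE) with small MAF partners. Its relative NFE2L1 is known for raising proteasome gene transcription when the proteasome is inhibited. Renal carcinoma cells, like other cells, express the constitutive core, and the immunoproteasome subunits replace their constitutive counterparts in cells exposed to interferon.

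RNA was sequenced from 786-O, a human clear cell renal cell carcinoma line that lacks functional VHL. The 3 control libraries carry the source name siControl, the genotype WT and the time 0 h. The 3 knockdown libraries carry the source name siNFE2L3 and the time 48 h, so that siRNA and labelled time cannot be told apart. The genotype label of 2 knockdown libraries names NFE2L4 or NFE2L5 knockdown in place of NFE2L3, while their titles and source names give NFE2L3. The sources used here do not say which siRNA against NFE2L3 was used. The study states independent trials for its data in general, but neither the labels nor the RNA-seq methods tie these libraries to separate cultures, so the spread behind the p-values may be technical.

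The targeted gene itself was low in every knockdown library. NFE2L3 had 27.4, 26.5 and 27.1 RPKM (counts scaled to library depth and to each kilobase of annotated exon) in control libraries 1 to 3 and 4.58, 4.50 and 4.89 RPKM in knockdown libraries 1 to 3, a log2 fold change of -2.54. Each library held between 51828446 and 57391929 counts. Of 10 renal and clear cell carcinoma markers, 8 were above 1 CPM (counts scaled to library depth alone), and their summed level was 2567 to 2628 CPM in control and 2311 to 2410 CPM in knockdown libraries; CA9 and NDUFA4L2 stayed under 1 CPM. Of the 10 markers CA9 was too low to be tested, and 5 were lower in knockdown cells at an edgeR adjusted p under 0.05. Among all genes tested, 14.1% were lower and 12.9% higher. EPAS1 was higher at a log2 fold change of 0.13 (edgeR adjusted p = 0.0130). VIM, which had the largest share of the sum, did not pass (-0.10, 0.0686). The part of these marker levels in the results on the proteasome was not tested. None of 7 markers of blood, endothelial and other cells passed 1 CPM, CDH5 and EPO had no count, and their summed level was 0.346 to 1.1 CPM in control and 0.701 to 0.931 CPM in knockdown libraries.

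Some proteasome promoters hold the letters of the ARE core, TGACNNNGC, the kind of site that NFE2L factors are known to bind. RefSeq windows of the GRCh38.p14 build, from 250 bases before to 50 bases after a transcription start, were found for 42 of the 48 members, and some had more than 1 start. On either strand the core was present in 17 of 52 member windows (32.69%) and in 13.35% of all 35116 windows. A match is a description and not a shown binding site. The study also ran ChIP-seq of Flag-tagged NFE2L3 in 786-O cells and reports transcripts bound at their promoters. Those binding data were not used here. The following stretches lie before the RefSeq start of their window. They are shown for 7 genes whose transcripts fell, 1 from each group, and for PSME1 and PSMG2, whose transcripts did not pass the test. For PSMC5, PSMA4, PSMB9, PSMG1, PSME2 and PSMG2 the counted gene begins further upstream than that start. Their stretches lie inside its annotated span. The core is in capitals. Where it is written from GC to TCA it lies on the opposite strand.
PSMC5, chr17:63827654-63827682, plus strand, 57 bases before the start: gaccggatctGCTGTGTCAgcgccgccct
PSMA4, chr15:78540650-78540678, plus strand, 126 bases before the start: gtgggcacgaTGACTCTGCaccgcctcct
PSMB3, chr17:38752627-38752655, plus strand, 104 bases before the start: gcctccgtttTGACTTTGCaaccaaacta
PSMB9, chr6:32854034-32854062, plus strand, 148 bases before the start: gggcggggctGCCTCGTCActtgtctcgg
PSMD9, chr12:121888678-121888706, plus strand, 102 bases before the start: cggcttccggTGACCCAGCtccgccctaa
PSMG1, chr21:39183616-39183644, minus strand, 183 bases before the start: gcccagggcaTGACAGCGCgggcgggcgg
PSME2, chr14:24146767-24146795, minus strand, 175 bases before the start: ccctggactgTGACCCAGCcagcaccgcc
PSME1, chr14:24136098-24136126, plus strand, 86 bases before the start: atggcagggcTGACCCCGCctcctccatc
PSMG2, chr18:12658689-12658717, plus strand, 39 bases before the start: cagtttcccgTGACCCCGCggccgctctg

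Members with and without the core in a window are set side by side here, with no test. Of the 16 genes with a core, 11 were lower at the threshold used throughout, with a median log2 fold change of -0.18. Of the 26 genes without one, 17 were lower, with a median of -0.17. Among all genes tested, 14.1% were lower and 12.9% higher at that threshold. Other promoter letters were also searched on both strands: TGAGTCA, the AP-1 element, stood in 5.769% of member windows and 4.949% of all, CCAAT in 40.38% and 34.61%, and the GC box GGGCGG in 69.23% and 44.95%. The member windows were also richer in G and C, with a median of 62.5% against 58.67%, and the part of base composition in these shares was not tested.

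Over all 48 members, the 31 that were lower passed an adjusted p under 0.05 in the quasi-likelihood test of edgeR, which is a share of 64.6%. Among all 19916 genes tested, 14.1% were lower and 12.9% were higher at the same threshold. These shares also stand beside the counts given for each group below. The groups hold between 3 and 15 members, and most are too short to read a count against these shares. The mean was below control for 44 members and above it for 4 (PSMC3, PSME1, PSMG2 and PSMG4). The median log2 fold change of the members was -0.16, beside -0.000656 for all genes tested. All knockdown libraries lay below all control libraries for 32 members, and the opposite held for none, while 20.4% of all genes tested were separated downwards and 19.1% upwards. The methods of the study set a fold cutoff of 2 beside an unadjusted p of 0.05. Under these cutoffs 0 members passed, beside 1.08% of all genes tested. Without any adjustment, 32 members were lower and 0 higher at a p under 0.05 in edgeR. The share of all genes at that unadjusted cutoff alone was not counted, so the 32 cannot be read against it. At the adjusted threshold, DESeq2, limma-voom and the edgeR exact test also called 0 members higher.

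The members took 0.568% to 0.588% of all counts in control libraries and 0.510% to 0.520% in knockdown libraries. Their summed level was 1728 ± 33.9 RPKM in control and 1599 ± 32.3 RPKM in knockdown cells (SD, n = 3 each), which is 7.47% lower. Set against the mean of the controls, the median member deviated by -0.03, -0.02 and 0.04 on the log2 scale in control libraries 1 to 3, and by -0.18, -0.13 and -0.15 in knockdown libraries 1 to 3. No knockdown library carried the shift alone. In bulk RNA, fewer cells with a transcript and less of the transcript per cell cannot be told apart.

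**Figure D1:**
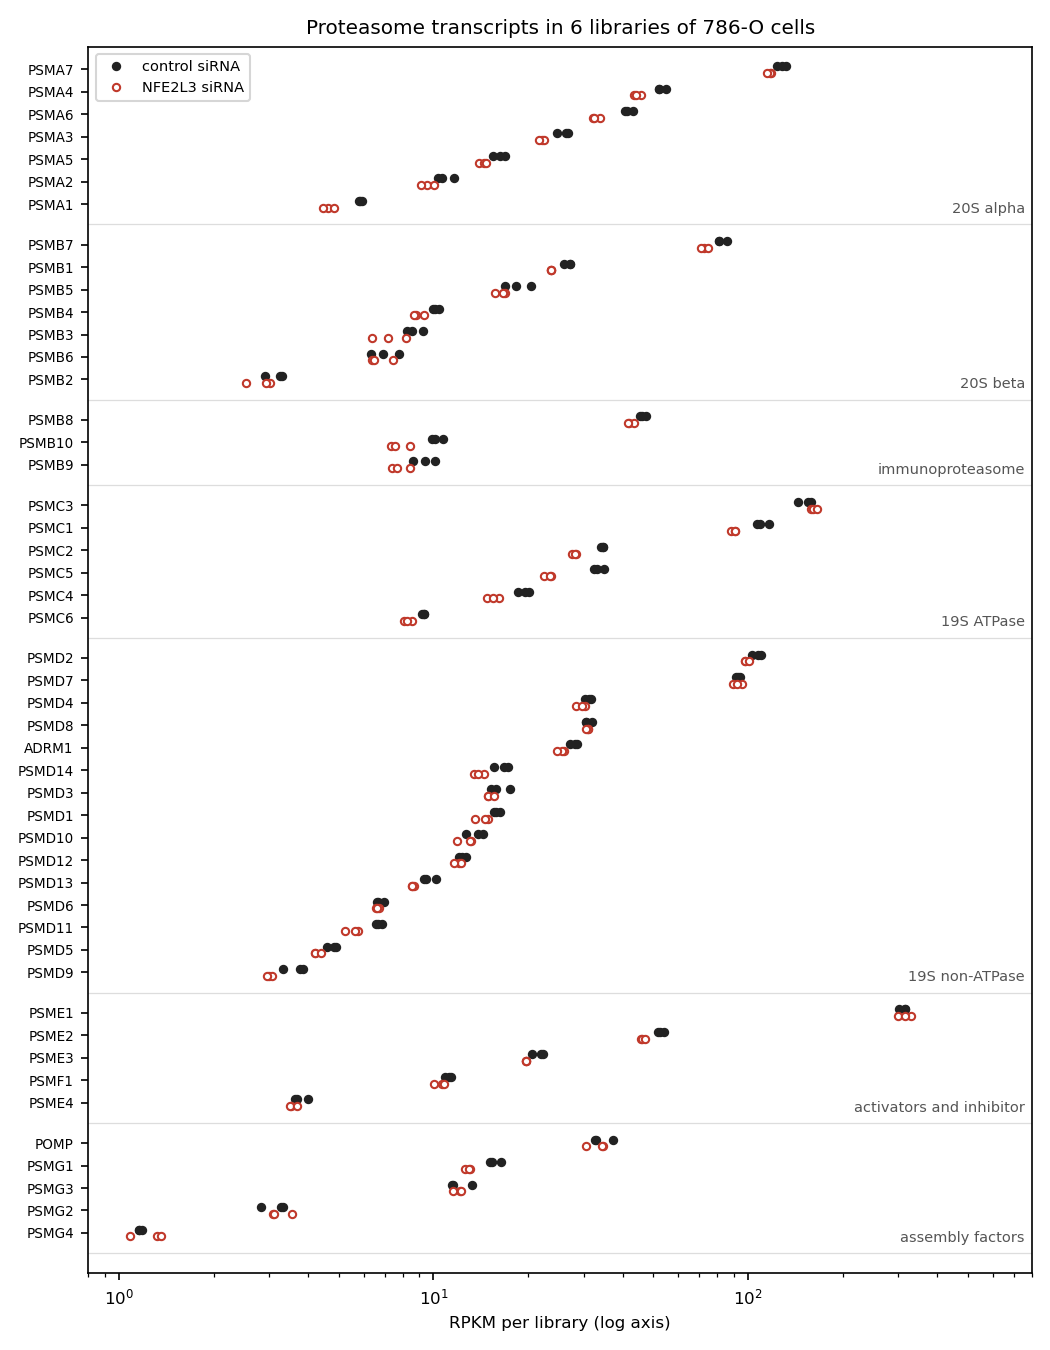
RPKM of each of the 48 transcripts on a log axis, by structural group, with control libraries as filled points and knockdown libraries as open points. Control means ran from 1.17 RPKM for PSMG4 to 311.9 RPKM for PSME1, and most open points lay to the left of the filled points of the same gene.

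**Figure D2:**
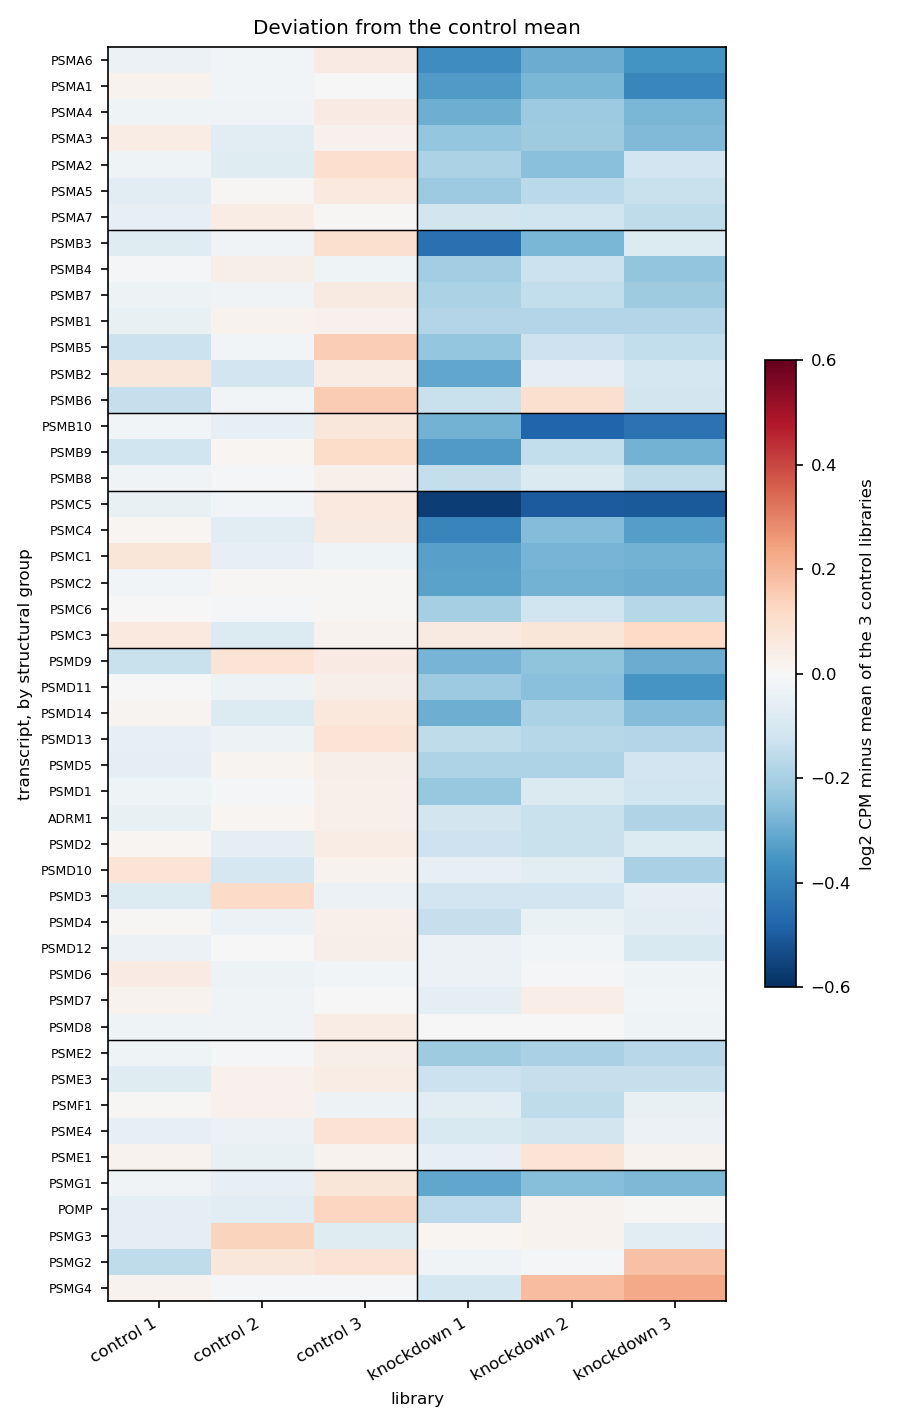
Colour gives the log2 CPM of each transcript in each library minus the mean of the 3 control libraries, with blue for lower and red for higher values. The blue of the knockdown columns is deepest for PSMC5, while PSMD6, PSMD7, PSMD8 and PSMG3 are pale. PSMC3, PSME1, PSMG2 and PSMG4, whose means lay above control, lean to red on average.

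The alpha subunits form the outer rings of the core and gate its channel, and all 7 of their transcripts fell. The median log2 fold change was -0.24, with a range of -0.34 to -0.13, and the summed level was 281.6 ± 6.13 RPKM in control and 244.9 ± 2.86 RPKM in knockdown cells, 13.0% lower. PSMA6 (chr14:35278633-35317493, plus strand, GRCh38) showed the lowest fold change of the group. It had 40.5, 41.1 and 43.0 RPKM in the controls and 32.1, 33.8 and 32.4 RPKM in the knockdown libraries, a log2 fold change of -0.34 (SE 0.0393, edgeR adjusted p = 1.18e-07). The highest knockdown value lay well under the lowest control value. PSMA1 came next, with 5.94, 5.78 and 5.84 RPKM in control and 4.63, 4.84 and 4.46 RPKM in knockdown libraries (log2 fold change -0.33, SE 0.0624, edgeR adjusted p = 1.52e-04). PSMA7, the most abundant alpha transcript, had the fold change nearest to 0. Its control libraries gave 123.7, 131.8 and 128.7 RPKM and its knockdown libraries 118.6, 117.8 and 115.3 RPKM, so the groups were apart, at a log2 fold change of -0.13 (SE 0.0388, edgeR adjusted p = 0.0139). PSMA4, PSMA3, PSMA2 and PSMA5 lay between these at log2 fold changes of -0.26, -0.24, -0.19 and -0.17, with edgeR adjusted p of 7.60e-06, 1.27e-04, 0.00543 and 0.00331.

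Reads of some alpha transcripts may be shared with neighbours. PSMA6 shares 919 exon bases on its own strand with RP11-561B11.2, whose log2 fold change was -0.30, and PSMA1 shares 814 bases with RP11-140L24.4 (-0.07). RP11-561B11.2 had a mean of 242.7 CPM over all libraries, beside 270.4 CPM in control and 213.3 CPM in knockdown cells for PSMA6. PSMA2 shares 781 bases on its own strand with RP11-111K18.1 (-0.16). The neighbours of PSMA1 and PSMA2 had higher levels than these members. RP11-140L24.4 had a mean of 31.1 CPM, beside 19.3 CPM in control and 15.3 CPM in knockdown cells for PSMA1. RP11-111K18.1 had 76.4 CPM, beside 57.9 CPM in control and 50.9 CPM in knockdown cells for PSMA2. The named pseudogenes of PSMA6 had at most 0.440 CPM.

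The constitutive beta subunits include the proteases of the core, and 5 of their 7 transcripts fell, with none higher. The median log2 fold change was -0.17 and the summed level went from 156.8 ± 6.17 to 138.5 ± 3.20 RPKM, 11.7% lower. PSMB7 carries the trypsin-like site and was the most abundant of them. Its controls stood at 80.6, 81.1 and 85.7 RPKM and its knockdown libraries at 72.2, 74.4 and 71.2 RPKM (log2 fold change -0.18, SE 0.0401, edgeR adjusted p = 8.58e-04), with no overlap. PSMB5, the chymotrypsin-like subunit that proteasome inhibitor drugs target, had 16.8, 18.3 and 20.4 RPKM against 15.7, 16.9 and 16.6 RPKM (log2 fold change -0.17, SE 0.0606, edgeR adjusted p = 0.0345). Knockdown library 2 exceeded control library 1, so the PSMB5 groups overlapped. PSMB6, the caspase-like subunit, had 6.35, 6.90 and 7.76 RPKM in control and 6.36, 7.46 and 6.48 RPKM in knockdown libraries, with an edgeR adjusted p of 0.731. Its knockdown level was 96.6% of control, with a 95% interval of 85.4% to 109% that leaves room for a fall as large as that of PSMB5; intervals here are for the single gene and not adjusted for the number of genes.

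Among the beta subunits that have no protease site, PSMB3 had the lowest fold change. It had 8.27, 8.55 and 9.29 RPKM in control and 6.37, 7.18 and 8.21 RPKM in knockdown libraries (log2 fold change -0.26, SE 0.0896, edgeR adjusted p = 0.0276). The gap between the groups was narrow, since the highest knockdown library nearly reached the lowest control. PSMB4 gave 10.1, 10.5 and 9.999 RPKM against 8.81, 9.31 and 8.64 RPKM, again without overlap (log2 fold change -0.19, SE 0.059, edgeR adjusted p = 0.0150). PSMB1 fell by 0.17 on the log2 scale (edgeR adjusted p = 0.00305), while PSMB2 had a log2 fold change of -0.16 that missed the threshold (edgeR adjusted p = 0.126). PSMB1 and PSMB7 passed whichever library was left out, whereas the calls of PSMB3, PSMB4 and PSMB5 depended on which libraries were kept: 2 of the 7 transcripts passed without knockdown library 1, and 3 passed without control library 3 or without knockdown library 3.

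PSMB8, PSMB9 and PSMB10 are the immunoproteasome subunits, which interferon gamma induces and which favour peptides fit for MHC class I. All 3 transcripts fell, with a summed level of 65.8 ± 2.00 RPKM in control and 57.9 ± 1.28 RPKM in knockdown cells, 12.0% lower. PSMB10 (chr16:67934502-67937087, minus strand) was second only to PSMC5 among the 48 members. Its RPKM was 10.1, 9.89 and 10.7 in control and 8.41, 7.36 and 7.54 in knockdown libraries, a log2 fold change of -0.40 (SE 0.0672, edgeR adjusted p = 4.13e-05), or 75.9% of control. PSMB9 (chr6:32844136-32859585, plus strand) had 8.58, 9.40 and 10.1 RPKM against 7.38, 8.42 and 7.68 RPKM (log2 fold change -0.26, SE 0.0629, edgeR adjusted p = 0.00264). The PSMB9 groups were close but apart. PSMB8 lies beside PSMB9 in the MHC region (chr6:32840717-32844703, minus strand) and was the most abundant of the 3. It had 45.5, 46.0 and 47.3 RPKM in control and 41.9, 43.6 and 41.6 RPKM in knockdown libraries (log2 fold change -0.13, SE 0.0411, edgeR adjusted p = 0.0211). PSMB8 and PSMB9 share exon bases with PSMB8-AS1 (425 and 174), which had a log2 fold change of -0.13, and PSMB10 shares 644 with CTC-479C5.12 (-0.18).

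Each immunoproteasome subunit takes the place of a constitutive one, so their RPKM ratios were compared for the 3 pairs. PSMB8 to PSMB5 was 2.70, 2.52 and 2.32 in control and 2.67, 2.58 and 2.5 in knockdown libraries. These ratios overlapped, with a log2 difference of 0.04 (two-sided exact permutation test, p = 0.7, adjusted over the 3 pairs 0.7). PSMB9 to PSMB6 was 1.35, 1.36 and 1.30 in control and 1.16, 1.13 and 1.19 in knockdown libraries, a log2 difference of -0.21 with no overlap. PSMB10 to PSMB7 was 0.126, 0.122 and 0.125 in control and 0.116, 0.0988 and 0.106 in knockdown libraries, a log2 difference of -0.22, also with no overlap. Both of these gave an exact permutation p of 0.1, adjusted 0.15, and 0.1 is the smallest p that 3 against 3 libraries allow. RPKM uses the length of all annotated exons of a gene, so the size of a ratio depends on the annotation more than its change between groups does.

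**Figure D3:**
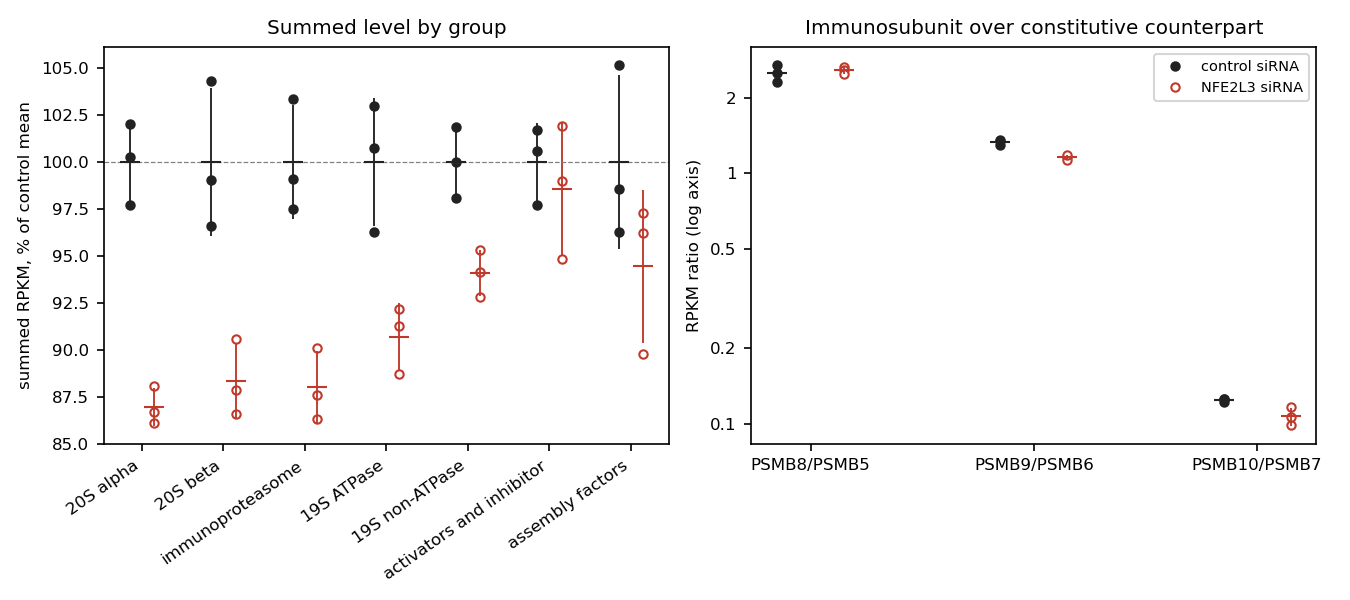
Left, the summed RPKM of each group as a percentage of its control mean (the axis does not start at 0); right, the RPKM ratio of each immunoproteasome subunit to its constitutive counterpart on a log axis; points are libraries, and horizontal marks with bars give mean and SD of 3 libraries. The summed level lies 13.0% lower for the alpha subunits and 1.41% lower for activators and inhibitor, whose groups overlap.

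The 6 ATPases form the ring of the 19S cap that unfolds substrates and opens the gate of the core, and 5 of them fell. The median log2 fold change was -0.30, the lowest of the 7 groups. PSMC5 (chr17:63827152-63832026, plus strand) had the lowest fold change of all 48 members. Its RPKM was 32.4, 33.0 and 34.7 in control and 22.5, 23.6 and 23.6 in knockdown libraries, a log2 fold change of -0.52 (SE 0.0408, edgeR adjusted p = 1.02e-10), with a 95% interval of 65.7% to 73.7% of control. The distance between the PSMC5 groups was several times the spread within either. PSMC4 had 19.6, 18.6 and 20.1 RPKM against 14.8, 16.2 and 15.4 RPKM, likewise apart (log2 fold change -0.33, SE 0.0502, edgeR adjusted p = 1.00e-05). PSMC1 and PSMC2 each had a log2 fold change of -0.30 (edgeR adjusted p = 1.23e-06 and 9.88e-07), and PSMC6 of -0.16 (0.00473).

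PSMC3 was the ATPase whose mean lay above control. It was the most abundant of them (chr11:47418769-47426473, minus strand), with 158.8, 144.2 and 154.9 RPKM in control and 158.1, 160.6 and 165.6 RPKM in knockdown libraries. The groups overlapped, and the log2 fold change of 0.08 missed the threshold (SE 0.0407, edgeR adjusted p = 0.15). Its 95% interval, 99.8% to 112% of control, lay above those of the 5 other ATPases, of which the nearest was that of PSMC6 at 84.1% to 94.9%, and the difference between the genes was not tested. Without control library 1 PSMC3 passed as higher, at a log2 fold change of 0.11. The summed ATPase level, in which PSMC3 takes the greatest part, was 9.29% lower.

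PSMC1 and PSMC5 lie against genes read from the opposite strand. PSMC1 shares 4671 exon bases, 75.8% of its own, with NRDE2 (log2 fold change -0.26), and PSMC5 shares 874 bases, 19.5%, with FTSJ3 (-0.24). The sources used here do not say whether counting used strand, so the reads of such pairs are uncertain. The PSMC1 copy PSMC1P1 stood at 11.1 CPM with a log2 fold change of -0.43, and no other named copy of PSMC1 passed 0.609 CPM.

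The non-ATPase members are the lid, the rest of the base of the cap and the base chaperones PSMD5, PSMD9 and PSMD10. Of these 15 transcripts, 8 fell while 7 did not pass. The median log2 fold change was -0.11 and the summed level was 5.90% lower. The chaperone PSMD9, which helps assemble the base, gave the lowest value. It had 3.32, 3.86 and 3.76 RPKM in control and 3.0, 3.08 and 2.96 RPKM in knockdown libraries (log2 fold change -0.28, SE 0.0577, edgeR adjusted p = 5.37e-04). PSMD9 shares 1307 exon bases on its strand with RP11-87C12.2 (-0.29) and 436 with WDR66 (-0.47). On the opposite strand, PSMD11 shares 675 with RP11-227G15.12 (-0.38) and ADRM1 shares 244 with LAMA5 (-0.20). The lid subunit PSMD11 had 6.67, 6.55 and 6.84 RPKM against 5.74, 5.62 and 5.24 RPKM, with no overlap (log2 fold change -0.27, SE 0.0485, edgeR adjusted p = 8.25e-05). PSMD14, the deubiquitinase that removes ubiquitin chains from substrates, fell by 0.25 on the log2 scale (edgeR adjusted p = 6.77e-05).

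The scaffold subunits PSMD1 and PSMD2 and the ubiquitin receptor ADRM1 also fell, with log2 fold changes of -0.14, -0.11 and -0.14 (edgeR adjusted p = 0.0145, 0.0281 and 0.0169), as did the base chaperone PSMD5 (-0.16, 0.0417) and the lid subunit PSMD13 (-0.17, 0.00916). The ubiquitin receptor PSMD4 had a log2 fold change of -0.08 that missed the threshold although its groups were apart (edgeR adjusted p = 0.155). PSMD8, a lid subunit, was close to level. Its libraries had 30.5, 30.7 and 32.0 RPKM in control and 31.1, 31.0 and 30.5 RPKM in knockdown cells (log2 fold change -0.01, SE 0.0404, edgeR adjusted p = 0.895), with a 95% interval of 93.8% to 105% of control. The lid subunits PSMD7 (-0.01, 0.870), PSMD6 (-0.02, 0.754), PSMD12 (-0.05, 0.468) and PSMD3 (-0.10, 0.137), and the base chaperone PSMD10 (-0.10, 0.196), did not pass. On the opposite strand, PSMD7 shares 842 exon bases with AC009120.6 (log2 fold change -0.01) and PSMD6 shares 352 with PSMD6-AS2 (0.75). The count of 8 was 3 without control library 3 and 5 without knockdown library 1 or without knockdown library 3.

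**Figure D4:**
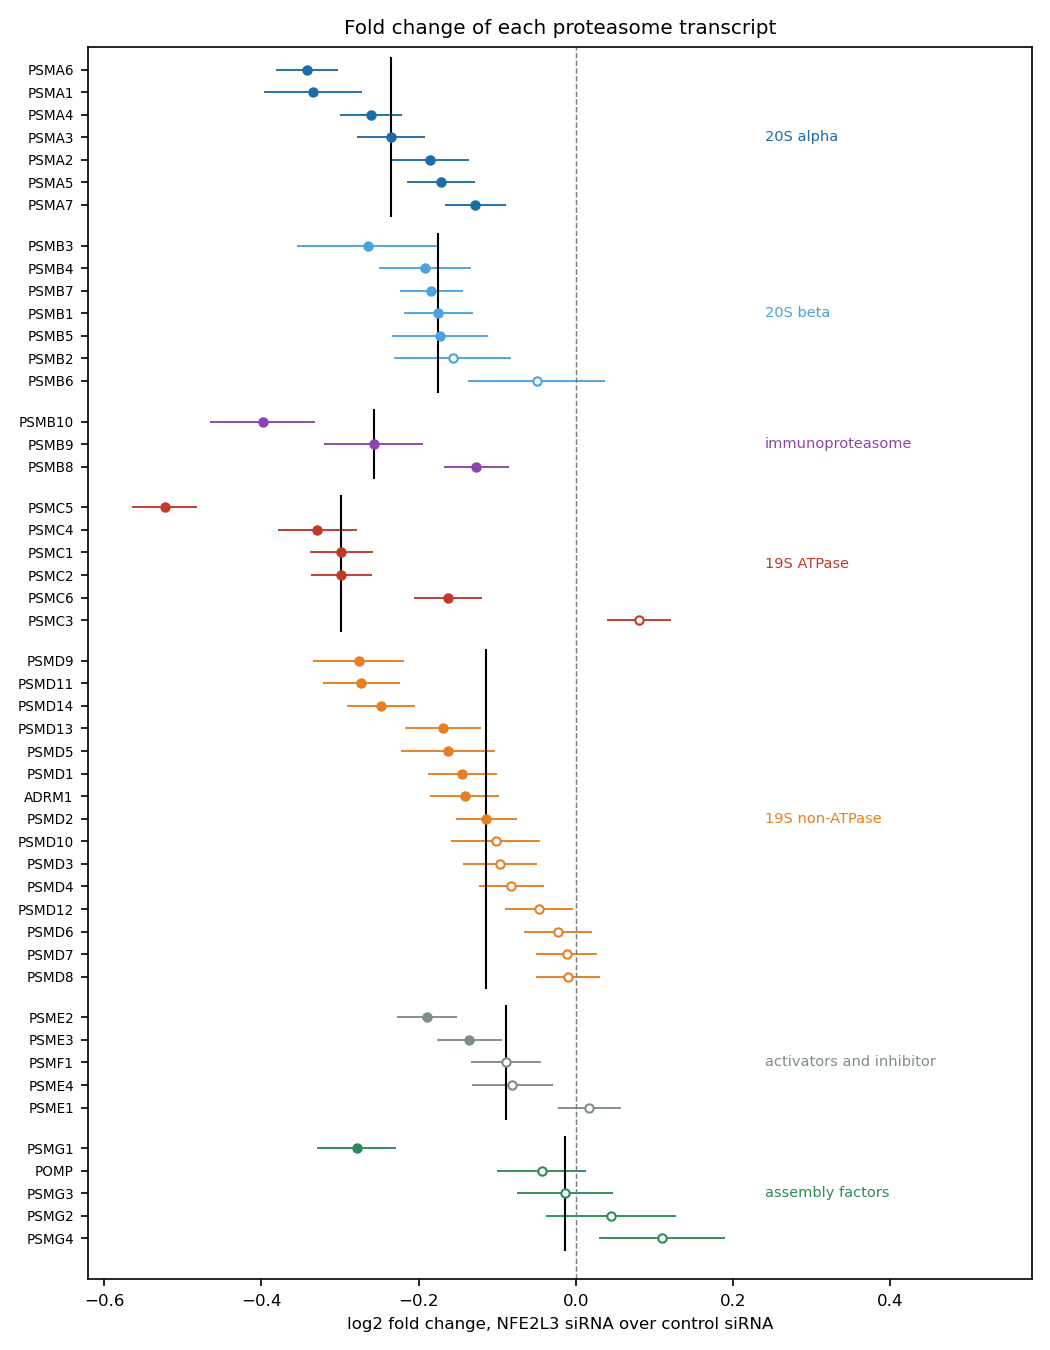
Log2 fold change of each transcript, NFE2L3 siRNA over control siRNA, with bars for 1 standard error, filled points for an edgeR adjusted p under 0.05, open points for the rest, and a black line at each group's median. The alpha subunits and 5 ATPases lie to the left of 0, while PSMC3, PSME1, PSMG2 and PSMG4 lie to the right as open points.

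The activators open the core without the 19S cap, and PSMF1 is named as an inhibitor. Of these 5 transcripts 2 fell (40%, beside 14.1% of all genes tested), a group too short to read against that share. The summed level was 401.1 ± 8.32 RPKM in control and 395.5 ± 14.3 RPKM in knockdown cells, a difference within the spread. PSME1 and PSME2 encode the partners of the interferon-inducible PA28 ring, and PSME2 passed the test while PSME1 did not. PSME1, the most abundant member, had 316.4, 302.6 and 316.8 RPKM in control and 301.0, 329.6 and 316.1 RPKM in knockdown libraries (log2 fold change 0.02, SE 0.0401, edgeR adjusted p = 0.809). PSME2 had 51.8, 52.3 and 54.1 RPKM against 45.5, 46.1 and 47.0 RPKM, with no overlap (log2 fold change -0.19, SE 0.0385, edgeR adjusted p = 3.96e-04). The 95% intervals were 95.6% to 107% of control for PSME1 and 83.0% to 92.6% for PSME2, and the difference between them was not tested. PSME3, the nuclear relative of the pair, gave 20.5, 22.0 and 22.3 RPKM in control and 19.7, 19.6 and 19.6 RPKM in knockdown libraries (log2 fold change -0.14, SE 0.0413, edgeR adjusted p = 0.0139). PSME4 and PSMF1 had log2 fold changes of -0.08 and -0.09 that did not pass (edgeR adjusted p = 0.264 and 0.151). Without control library 3 or without knockdown library 3, 1 transcript of the group passed.

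Assembly factors guide the alpha and beta rings together, and of 5 only PSMG1 fell. That is 20%, beside 14.1% of all genes tested, and this group too is too short to read against that share. PSMG1 (chr21:39174769-39183851, minus strand) encodes a partner of the chaperone pair that builds the alpha ring. It had 15.4, 15.1 and 16.4 RPKM in control and 12.6, 13.1 and 13.0 RPKM in knockdown libraries (log2 fold change -0.28, SE 0.0507, edgeR adjusted p = 1.09e-04). POMP, the maturation protein that aids the assembly of the beta ring (chr13:28659104-28678925, plus strand), did not pass. Its libraries had 32.8, 32.6 and 37.4 RPKM in control and 30.6, 34.7 and 34.4 RPKM in knockdown cells, with overlap (log2 fold change -0.04, SE 0.0563, edgeR adjusted p = 0.627). The interval of 89.5% to 105% of control includes no change and a fall of the size seen for PSMA7. PSMG4 had 1.18, 1.16 and 1.16 RPKM against 1.08, 1.33 and 1.36 RPKM, so the groups overlapped (log2 fold change 0.11, SE 0.0797, edgeR adjusted p = 0.344). PSMG4 shares 1388 exon bases with SLC22A23 on the opposite strand, which had a log2 fold change of -0.72. PSMG2 and PSMG3, the remaining chaperones, had log2 fold changes of 0.04 and -0.01 (edgeR adjusted p = 0.747 and 0.901). On the opposite strand, PSMG2 shares 468 exon bases with CEP76 (log2 fold change 0.28) and 92 with SPIRE1 (-0.08). SPIRE1 had a mean of 116.2 CPM over all libraries, beside 10.5 CPM in control cells for PSMG2.

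The levels of the members differed far more among themselves than between groups of libraries. Control means spanned 268-fold over the 48 members, from PSMG4 to PSME1, and 40.6-fold over the 14 constitutive core subunits, from PSMB2 at 3.16 RPKM to PSMA7 at 128.1 RPKM, although core subunits are built into the particle in equal number. Exon length was taken over all annotated exons, which lowers the RPKM of genes with long rarely used exons. Counts per member and library lay between 420 for PSMB3 and 38090 for PSMC1.

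The members were also split by whether their exons overlap another gene or a copy is named as their pseudogene. Of the 17 members with neither, 12 were lower (70.6%), with a median log2 fold change of -0.16. Of the 31 members with 1 or both, 19 were lower (61.3%), with a median of -0.14.

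Genes that work with the proteasome were read against the same shares of all genes tested, 14.1% lower and 12.9% higher. Of 21 tested deubiquitinases, receptors, shuttles and other proteasome-bound factors, 6 were lower (28.6%) and 2 higher (9.52%). UBE3A, a ubiquitin ligase found on the proteasome, rose from 6.92 to 9.73 RPKM (log2 fold change 0.49, edgeR adjusted p = 2.76e-10), USP14, a deubiquitinase of the cap, fell from 12.6 to 9.92 RPKM (-0.35, 5.20e-07), and ZFAND5 fell as well (-0.30, 9.13e-06). Of 15 ubiquitin genes and activating or conjugating enzymes, 3 were lower (20%) and 2 higher (13.3%), shares near those of all genes, among them UBE2D1 at 0.26 (edgeR adjusted p = 4.54e-04) and the ubiquitin fusion gene RPS27A at -0.19 (0.00258).

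Of 8 genes for NFE2L1 and its processing, 3 were lower and 2 higher, a list too short to read against the shares of all genes. DDI2, the protease that cleaves NFE2L1, is also 1 of the 6 lower proteasome-bound factors, and it fell from 3.89 to 2.94 RPKM (log2 fold change -0.40, edgeR adjusted p = 4.31e-07), while NFE2L1 itself rose from 163.0 to 182.2 RPKM (0.16, 0.00162) and UFD1L rose as well (0.26, 2.14e-04). SEL1L, a part of the machinery that draws proteins out of the endoplasmic reticulum, fell by 0.16 on the log2 scale (edgeR adjusted p = 0.00399). Of 12 genes of peptide transport, trimming and loading, which act downstream of the proteasome, 6 were lower (50%) and 0 higher. B2M, the light chain of MHC class I, fell from 116.0 to 79.8 RPKM (log2 fold change -0.54, edgeR adjusted p = 1.54e-11), and TAPBP, ERAP2 and TAP2 had log2 fold changes of -0.25, -0.21 and -0.17.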

How the data were processed

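Total RNA of 786-O cells was enriched for mRNA with oligo(dT) beads, per the methods of the study, and made into stranded libraries with molecular identifiers. The labels give a DNBSEQ-T7 sequencer and the methods an Illumina instrument. Per the labels and the methods of the study, reads were trimmed with Trimmomatic 0.36, collapsed by identifier, aligned with STAR 2.5.3a to the Ensembl human genome, and assigned to exons by featureCounts (Subread 1.5.1). The deposited values are raw counts per gene from the authors, with no normalization. The strand setting and whether mates of a pair were counted singly are not given in the sources used here. Among low counts, 67.6% to 69.9% were even in each library, and why was not tested. A count may therefore not stand for 1 molecule.

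From these counts, edgeR 4.0.16 in R 4.3.3 was run with TMM scaling, a low-count filter (filterByExpr, minimum count 10), and a robust quasi-likelihood test of 3 against 3 libraries without covariates. P-values were adjusted by Benjamini-Hochberg over all 19916 genes tested, and a gene was called at an adjusted p under 0.05. The SE is the log2 fold change divided by the root of F. RPKM used the exon length in the table and TMM-adjusted totals. Levels in every library are given for POMP, for the immunoproteasome subunits and their counterparts, and in each group for the 2 lowest fold changes and the highest. Other genes are the target, neighbours and copies of named members, and up to 4 genes of smallest adjusted p in each related list. Members and lists were chosen with earlier results of these data known. Alternatives used RLE, upper quartile or no scaling, DESeq2 1.42.0, limma-voom 3.58.1, the edgeR exact test, other filters, halved counts, a replicate block, and each library left out. At 51828446 to 57391929 counts a library, each member had at least 420 counts. RefSeq promoters for PSMA7, PSMB1, PSMB6, PSMB7, PSMD4 and PSMG3 were not analysed here.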

Additional observations from a re-analysis of the deposited data

How the results depend on the processing

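Of the 31 members called lower, 19 were called in all 16 other fits, and 12 were lost in at least 1 (PSMA2, PSMA7, PSMB3, PSMB4, PSMB5, PSMB8, PSMD1, PSMD2, PSMD5, PSMD13, ADRM1 and PSME3). The number lower was 31 under RLE scaling, library totals, the exact test, limma-voom, the filter of 10 counts in every library and halved counts, 30 without a filter, 29 under DESeq2 and 27 under upper quartile scaling. Same-numbered libraries did not deviate together (correlations of -0.01, -0.05 and -0.02), so the numbers are not taken as pairs; with the replicate block 29 were lower, without PSMD2 and PSMD5, and the median log2 fold change was -0.16. With each library left out in turn, the number lower was 21 (without control 3) to 32, the number higher 0 to 1 (PSMC3, also the ATPase count, 0 to 1), and the median -0.18 to -0.13. Over the same fits, 2 to 5 beta subunits, 3 to 9 non-ATPase subunits and 1 to 2 activators were lower, and the PSMB8 to PSMB5 log2 ratio difference was -0.016 to 0.095. At the study's fold cutoff of 2, 0 members were lower, as in each of the 7 groups. Restricted to members without exon overlap or a named copy, 12 were lower: 3 alpha, 3 beta and 3 ATPase subunits and 2 non-ATPase subunits among them, by construction of fewer members. Values near 0 changed sign: under upper quartile scaling PSMD7 was 0.0084, PSMD8 0.010 and PSMG3 0.0064, and over the fits without 1 library the log2 fold change ran from -0.082 to 0.022 for POMP, -0.13 to 0.029 for PSMB6, -0.041 to 0.0023 for PSMD6, -0.038 to 0.012 for PSMD7, -0.023 to 0.012 for PSMD8, -0.016 to 0.051 for PSME1, -0.027 to 0.086 for PSMG2 and -0.052 to 0.053 for PSMG3; the cause was not tested. These intervals and counts cover counting and library spread; transcripts that share exon bases with a neighbour stay uncertain at any depth.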
